A study of Mus musculus with 16 samples.

Results

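Levels of 9 genes of Wnt signalling were examined in the ventricles of mouse embryos at E11.5. They were the rows with the symbols Fzd2, Fzd5, Fzd7, Wnt6, Wnt9b, Rspo3, Wif1, Nlk and Tcf7, and they were chosen by name out of the 5921 genes analysed here. All 9 were found, and 8 of them had a mean TPM of at least 1 over all libraries and were tested. Wnt6 was below that limit. TPM scales the transcript reads of each library to a fixed total and corrects for transcript length, so levels of different genes can be set side by side.

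The study asked what the transcription factor ATF4 does in heart development. In both mouse lines the Xmlc2-Cre transgene, which acts in cardiomyocytes, deletes part of Atf4. Exons 2 and 3 are flanked by loxP sites in the exon 2-3 line, and exon 2 alone in the exon 2 line. Each line had 4 control and 4 conditional knockout (cKO) libraries, 16 in all, from dissected ventricular tissue. No treatment was given. The genotype label reads C57BL/6 WT on every library, cKO included, and no label says if the controls had floxed Atf4 or the transgene. Atf4 itself was not analysed here, so the labels were not checked against its level. The deletion is limited to cardiomyocytes, whereas the RNA came from whole ventricle, in which cells with an intact Atf4 remain. The exon 2-3 line is batch 1 and the exon 2 line is batch 2, so a difference between lines and one between batches cannot be told apart. The labels describe biological replicates without saying whether the embryos shared litters.

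Wnt proteins are secreted ligands that bind Frizzled receptors on the cell surface. In the canonical branch this stabilises beta-catenin, which enters the nucleus and acts with TCF and LEF transcription factors, while other branches act on cell polarity and calcium. R-spondins strengthen the signal by removing the ubiquitin ligases that clear Frizzled receptors, and secreted inhibitors such as WIF1 bind the ligands themselves. In the embryonic heart, Wnt signals act on the proliferation and maturation of cardiomyocytes and on valve and outflow tract formation.

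Cardiomyocyte markers were present in all libraries. They mark heart muscle, and they do not check that the tissue was ventricle alone. The cardiomyocyte markers that could be read (Tnnt2, Tnni1, Myl4, Myl7 and Pln) summed to between 16940 and 18400 TPM in exon 2-3 controls and to between 12450 and 14530 TPM in exon 2 controls. Libraries of one group correlated with Pearson's r between 0.982 and 0.992 over the 2620 genes tested, and between 4505 and 4873 genes had a value above 0 in a library. Read depth cannot be recovered from TPM, so low values carry a counting error of unknown size. Both exon 2-3 libraries numbered 1, a control and a cKO, were the lowest of their line for Rspo3 and Wnt9b. The spread, likeness and fold changes of these 2 genes are given with and without them. The outlier criterion described near the end marked no library for either gene, and exon 2-3 control 3 was also low for Wnt9b, at 0.234 TPM.

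None of the 8 tested genes passed the threshold of an adjusted p of 0.05 for cKO against control in either line. Fzd7 came nearest: all 4 exon 2-3 cKO libraries had more of it than all 4 controls, a separation that 14.5% of all tested genes showed in one direction or the other. From the lowest to the highest library, Rspo3 spanned 22.6-fold in the exon 2-3 line and 1.74-fold in the exon 2 line. Wnt9b spanned 127-fold and 1.46-fold. Without both exon 2-3 libraries numbered 1, the spans in that line were 2.85-fold for Rspo3 and 20.4-fold for Wnt9b. All 8 genes had lower means in exon 2-3 controls than in exon 2 controls and 7 passed the test, beside 38.1% of all genes called lower, a difference that runs with batch. The plot of all libraries shows these 3 patterns.

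**Figure D1:**
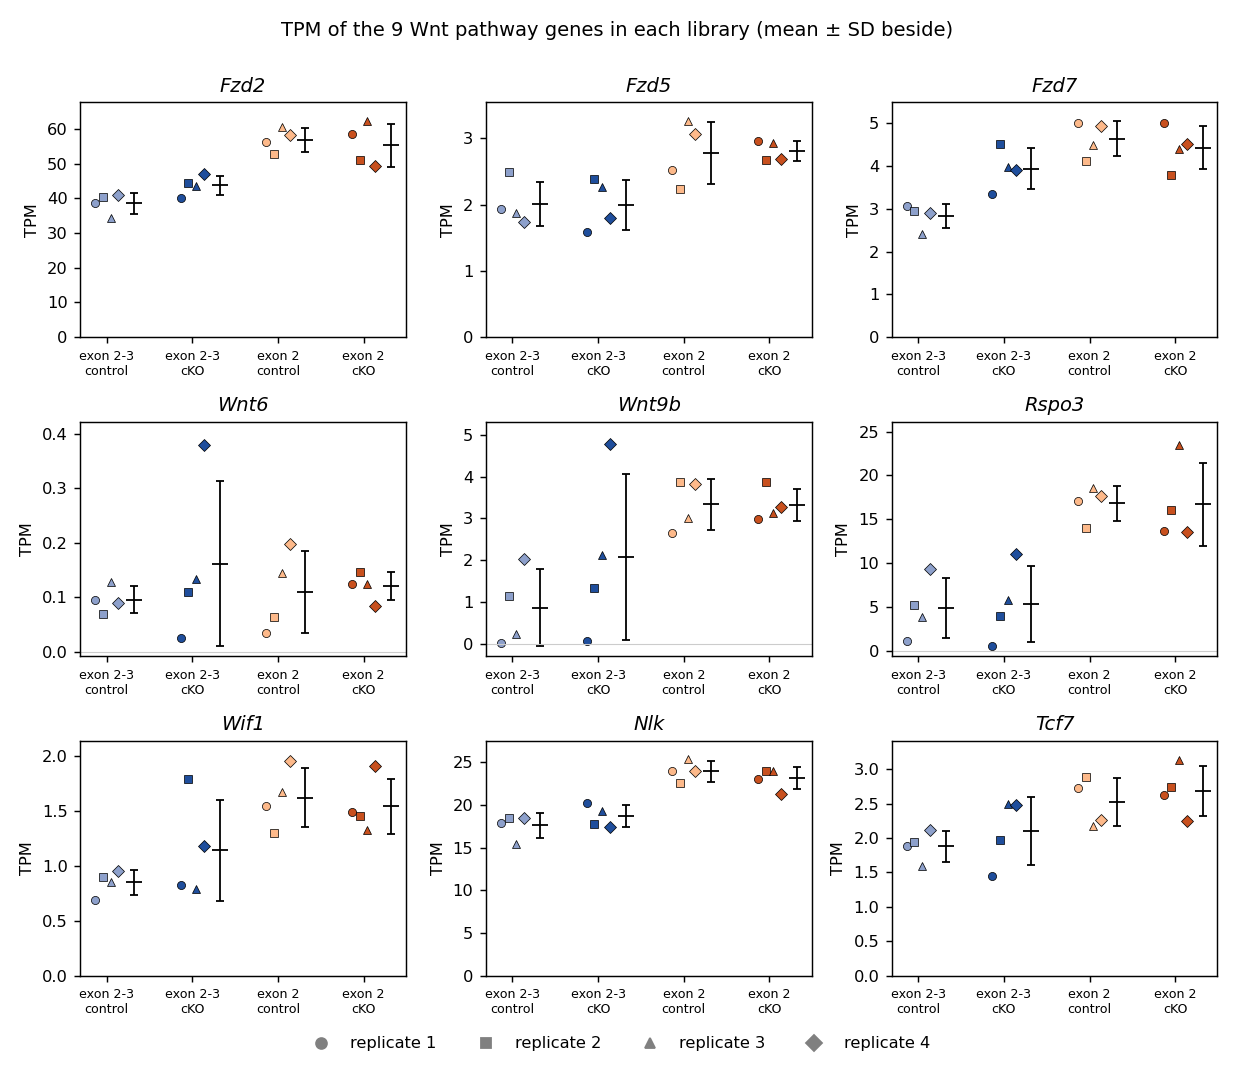
TPM (linear axis from 0) of the 9 genes in each of the 16 libraries, by group. Symbols mark the replicate number, and the bar beside each group is the mean ± SD (n = 4). Fzd7 has a mean of 2.83 TPM in exon 2-3 controls and 3.94 TPM in cKO with no overlap. Wnt9b spreads more widely in the exon 2-3 groups than in the exon 2 groups. For Rspo3 this holds only in proportion to its level. Its SD is 3.42 and 4.37 TPM in exon 2-3 controls and cKO, and 1.98 and 4.72 TPM in those of the exon 2 line.

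The order of the levels was similar in the 4 groups. Fzd2 was the most abundant, followed by Nlk, Rspo3 and Fzd7, and Wnt6 was the lowest in each group. In exon 2-3 controls the means were 38.6 TPM for Fzd2, 17.6 TPM for Nlk, 4.87 TPM for Rspo3, 2.83 TPM for Fzd7, 2.01 TPM for Fzd5, 1.88 TPM for Tcf7, 0.865 TPM for Wnt9b, 0.85 TPM for Wif1 and 0.0956 TPM for Wnt6. There, the ranges of each neighbouring pair from Rspo3 down to Wif1 overlapped, whereas Fzd2, Nlk and Wnt6 were separate from their neighbours. In exon 2 controls the neighbours that overlapped were Wnt9b with Fzd5 and Fzd5 with Tcf7.

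The receptors are described first. Fzd2, Fzd5 and Fzd7 encode Frizzled receptors with an extracellular domain that binds Wnt ligands and a membrane part with several helices. Fzd2 lies on chromosome 11 (chr11:102604431-102608058, plus strand), Fzd5 on chromosome 1 (chr1:64730558-64737750, minus strand) and Fzd7 on chromosome 1 (chr1:59482147-59486955, plus strand), all on GRCm38.p6. None of these 3 genes overlaps another row.

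Fzd7 had 3.06, 2.95, 2.41 and 2.91 TPM in the exon 2-3 controls. The 4 exon 2-3 cKO libraries had 3.35, 4.51, 3.98 and 3.91 TPM. The lowest cKO library, replicate 1, was above the highest control, so the groups did not overlap. The means were 2.83 ± 0.289 and 3.94 ± 0.476 TPM (SD, n = 4). As log2 of TPM + 1, the cKO differed from the control by 0.36 (SE 0.10, 95% interval 0.13 to 0.60), and the adjusted p over all 2620 genes from limma was 0.0712, which misses the threshold. Fzd7 was the 1 tested member whose exon 2-3 groups did not overlap, and 14.5% of all tested genes had groups that did not overlap there.

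Fzd7 did not separate the genotypes of the exon 2 line. The controls had 5.0, 4.13, 4.49 and 4.94 TPM and the cKO libraries 5.02, 3.79, 4.41 and 4.52 TPM. This gave a log2 fold change of -0.055 (95% interval -0.28 to 0.17, limma adjusted p 0.999). The difference between the lines' cKO effects was 0.42 (SE 0.14, 95% interval 0.12 to 0.72, limma adjusted p 0.143) and did not pass either. The exon 2-3 difference passed under 3 of 17 alternatives, with limma adjusted p 0.0493 after centring on the library median, 0.0465 without an intensity trend and 0.0293 in one fit over all libraries. It missed the threshold in the other 14. Among these were the fits with 1 library left out (adjusted p 0.0634 to 0.177), quantile normalisation (0.104) and no filter on low values (0.139).

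Fzd2 was the most abundant of the 9 genes, with 38.8, 40.3, 34.4 and 41.1 TPM in the exon 2-3 controls. The exon 2-3 cKO libraries had 40.2, 44.4, 43.7 and 47.0 TPM. All but cKO replicate 1 were above every control. On the log2 scale the difference was 0.18 (SE 0.071, 95% interval 0.019 to 0.34, limma adjusted p 0.180), short of the threshold. Control 3 was the lowest exon 2-3 control for Fzd2, and also for Fzd7, Nlk and Tcf7, but not for Fzd5, Wnt6, Wnt9b, Rspo3 or Wif1. After median centring the Fzd2 difference was 0.13 (SE 0.041, limma adjusted p 0.0713). The exon 2 controls had between 52.7 and 60.5 TPM and the cKO libraries between 49.3 and 62.5 TPM, so the cKO range held the control range whole. Fzd2 had a log2 fold change of -0.045 there.

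Fzd5 was low, at 2.01 ± 0.331 TPM in exon 2-3 controls and 2.00 ± 0.377 TPM in exon 2-3 cKO (SD, n = 4). Its libraries ranged from 1.73 to 2.49 TPM and from 1.59 to 2.38 TPM, and the log2 fold change was -0.0043 (95% interval -0.29 to 0.28). The exon 2 means were 2.78 ± 0.469 and 2.81 ± 0.154 TPM (SD, n = 4). The 2 genotypes overlapped in both lines.

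The upstream 250 bases of Fzd7 are shown because it was the receptor whose exon 2-3 groups separated, and those of Wnt9b because its highest and lowest libraries had the largest ratio of the 9 genes. Both come from RefSeq on GRCm38.p6 and read 5′ to 3′ on the gene's strand, ending at the base before the start site. Capitals mark a match to a TCF/LEF motif, searched as CTTTGAT and CTTTGTT on both strands.

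Fzd7: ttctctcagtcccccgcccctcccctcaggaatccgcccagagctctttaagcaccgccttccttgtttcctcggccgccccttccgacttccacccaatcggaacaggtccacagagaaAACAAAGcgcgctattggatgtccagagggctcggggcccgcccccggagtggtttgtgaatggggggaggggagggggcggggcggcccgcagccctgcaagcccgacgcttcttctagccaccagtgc

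Wnt9b: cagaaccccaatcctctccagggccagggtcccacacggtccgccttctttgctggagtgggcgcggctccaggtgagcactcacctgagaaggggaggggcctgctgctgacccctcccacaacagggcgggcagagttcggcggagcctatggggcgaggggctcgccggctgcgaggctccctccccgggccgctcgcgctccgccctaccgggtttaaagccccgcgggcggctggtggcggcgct

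The Fzd7 window is chr1:59481897-59482146 and the Wnt9b window chr11:103749822-103750071. The Wnt9b start site lies inside the span of the gene's row, which extends further upstream. The Fzd7 match, CTTTGTT on the other strand, begins 130 bases before the start site. Bases just after the start site were also sought in annotated transcripts of the gene. They were found for Wnt9b but not for Fzd7, whose start site rests on the RefSeq entry alone. An upstream sequence was found for 7 of the 9 genes, all but Fzd2 and Rspo3, and only that of Fzd7 held either TCF/LEF motif, against 8.06% of the 32851 windows of this length. The ATF4 composite motif, searched as TGATGNAA on both strands, is in 3.45% of all windows and in none of the 7 genes' windows. These are letter matches only.

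The ligands were Wnt6 and Wnt9b. Wnt6 lies at chr1:74754342-74785322 (plus strand) and Wnt9b at chr11:103727362-103775272 (minus strand). Wnt9b shares 1098 bases with Wnt3 on the other strand, but Wnt3 was at 0.0715 TPM or lower in all 16 libraries. Wnt6 overlaps Gm29539 on the other strand, which stayed at or below 0.0517 TPM.

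Wnt9b, a ligand known from the endocardium of the forming valves and from the kidney, had 0.0375, 1.16, 0.234 and 2.03 TPM in the exon 2-3 controls. The exon 2-3 cKO libraries had 0.0732, 1.33, 2.12 and 4.77 TPM. The 2 libraries numbered 1 were the lowest of the line and cKO replicate 4 the highest, and the groups overlapped. From lowest to highest, the 8 libraries spanned 127-fold, and the 6 without both libraries numbered 1 spanned 20.4-fold. Its log2 fold change of 0.61 came with a wide interval (SE 0.49, 95% interval -0.49 to 1.70, limma adjusted p 0.526). Without both libraries numbered 1 it was 0.79 (adjusted p 0.365). With 1 library left out it ran from 0.22, without cKO replicate 4, to 1.03, without cKO replicate 1, and at a pseudocount of 0.1 it was 1.11.

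Wnt9b was even across the exon 2 libraries. The controls had 2.65, 3.88, 3.00 and 3.82 TPM and the cKO libraries 2.99, 3.86, 3.14 and 3.27 TPM. These 8 libraries spanned 1.46-fold, and the log2 fold change was -0.0010. The difference between the lines' effects was 0.61 (limma adjusted p 0.691).

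Wnt6 was near the floor in all groups, with 0.0953, 0.0687, 0.129 and 0.0896 TPM in exon 2-3 controls and 0.0255, 0.110, 0.134 and 0.380 TPM in exon 2-3 cKO. One cKO library, replicate 4, exceeded the others, and the ranges overlapped. The exon 2 libraries ranged from 0.0342 to 0.197 TPM in controls and from 0.0838 to 0.146 TPM in cKO. In a fit with no filter on low values, the exon 2-3 log2 fold change was 0.077 (limma adjusted p 0.749).

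Rspo3 and Wif1 are secreted modulators. Rspo3 (chr10:29453106-29535867, minus strand) encodes an R-spondin that strengthens Wnt signals, and Wif1 (chr10:121034004-121100642, plus strand) encodes a secreted protein that binds Wnt ligands and holds them from their receptors. Neither overlaps another row.

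Rspo3 had 1.08, 5.23, 3.85 and 9.30 TPM in exon 2-3 controls. The exon 2-3 cKO libraries had 0.485, 3.92, 5.81 and 11 TPM. The libraries numbered 1 were the lowest and those numbered 4 the highest in both genotypes, and the range of the cKO libraries held that of the controls. The means, 4.87 ± 3.42 and 5.29 ± 4.37 TPM (SD, n = 4), were close against that spread. The log2 fold change was -0.031 (SE 0.63, 95% interval -1.43 to 1.37, limma adjusted p 0.987), and without both libraries numbered 1 it was 0.12 (adjusted p 0.899).

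Rspo3 was higher in the exon 2 line and varied less in proportion to its level. The controls had 17.1, 14, 18.6 and 17.7 TPM and the cKO libraries 13.6, 16, 23.5 and 13.5 TPM. The 8 libraries spanned 1.74-fold, against 22.6-fold in the exon 2-3 line. That line's span was 10.1-fold without cKO replicate 1 and 2.85-fold without both libraries numbered 1. The log2 fold change was -0.040 (95% interval -0.39 to 0.31).

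Wif1 had 0.690, 0.900, 0.853 and 0.956 TPM in exon 2-3 controls and 0.829, 1.79, 0.787 and 1.18 TPM in exon 2-3 cKO. Only cKO replicates 2 and 4 lay above the control range. Wif1 had a log2 fold change of 0.19 (SE 0.15, 95% interval -0.15 to 0.53, limma adjusted p 0.517). It was 0.058 without cKO replicate 2 and 0.33 at a pseudocount of 0.1. Means in the exon 2 line were 1.62 ± 0.269 and 1.54 ± 0.251 TPM (SD, n = 4), and the ranges overlapped.

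Among the exon 2-3 libraries, the SD within groups on the log2(TPM + 1) scale was 1.13 for Rspo3, rank 8 of the 2620 genes tested from the most variable down, and 0.874 for Wnt9b, rank 21. The median gene had 0.124. Without both libraries numbered 1 the SD was 0.603 for Rspo3 (rank 61) and 0.661 for Wnt9b (rank 50), against 0.128 for the median gene. The other 6 tested members lay between 0.10 and 0.22. The corresponding SD in the exon 2 line was 0.28 for Rspo3 (rank 319) and 0.17 for Wnt9b (rank 753), against 0.12 for the median gene. Whether the spread itself differed between the lines was not tested.

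Rspo3 and Wnt9b were low in the same exon 2-3 libraries (Pearson's r 0.889, 8 libraries), while in the exon 2 line their r was -0.20 (8 libraries). These coefficients are descriptions of libraries that share a line and a batch. Over all 16 libraries, with each line centred on its mean, the r was 0.841, and without both exon 2-3 libraries numbered 1 it was 0.694 over 14 libraries. The gene most like Rspo3 on that measure was Tbx2 (r 0.944, and 0.821 without both), a transcription factor gene of the atrioventricular canal and outflow tract. Next came Ngfr (0.893, and 0.712 without both) and Shroom1 (0.874, and 0.780). For Wnt9b the 3 most alike were n-TWcca2, listed at 0 in both libraries numbered 1 (0.935, and 0.928), Ngfr (0.906, and 0.829) and Tbx2 (0.864, and 0.726).

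Within the exon 2 line alone (8 libraries) much of this likeness was missing. There the r of Rspo3 was 0.241 with Tbx2 and 0.164 with Ngfr, and 0.786 with Shroom1. That of Wnt9b was -0.642 with Tbx2 and -0.197 with Ngfr, and 0.805 with n-TWcca2.

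Tbx2 itself had 2.37, 5.75, 3.92 and 10.7 TPM in exon 2-3 controls and 1.97, 5.41, 6.19 and 9.41 TPM in exon 2-3 cKO. As for Rspo3, the libraries numbered 1 were lowest and those numbered 4 highest. Tbx2 stayed between 9.54 and 12.3 TPM in the exon 2 line. Prrx1, a gene of mesenchymal cells, ran from 0.179 to 2.79 TPM in the exon 2-3 line with both libraries numbered 1 at its low end. In the exon 2 line it ran from 4.64 to 8.43 TPM. It was picked after its values were seen, out of 7 mesenchymal markers tested. Those 7 summed to between 646 and 726.1 TPM in exon 2-3 controls and to between 1037 and 1107 TPM in cKO. Prrx1 weighs little in that sum, so the sum varied little within each group while Prrx1 did not. The part that the composition of the dissected tissue had in the spread of Rspo3 and Wnt9b was not tested.

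**Figure D2:**
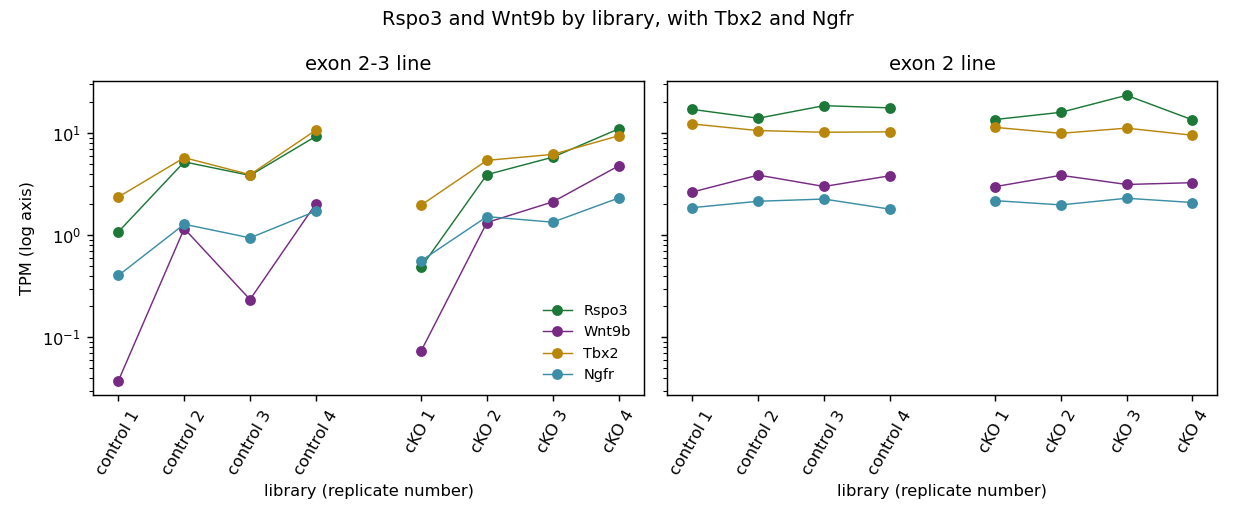
TPM (log axis) of Rspo3, Wnt9b, Tbx2 and Ngfr in each library of the exon 2-3 line (left) and the exon 2 line (right). Lines join the points of one gene and imply no order of replicates. On the left all 4 genes are low in the libraries numbered 1 of both genotypes, while on the right Rspo3 stays between 13.5 and 23.5 TPM and Wnt9b between 2.65 and 3.88 TPM.

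Nlk and Tcf7 act inside the cell. Nlk (chr11:78567168-78697595, minus strand) encodes a kinase that phosphorylates TCF and LEF factors, and Tcf7 (chr11:52246527-52283383, minus strand) encodes TCF1, one of those factors. Nlk overlaps Gm17235 on the other strand (at most 0.674 TPM) and shares 466 bases with Gm11196 on its own strand (at most 2.78 TPM). Tcf7 shares 332 bases with the other-strand gene Skp1, which had between 191 and 260 TPM. Since the counting is not stated to use strand, the low Tcf7 values are uncertain.

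Nlk had 17.9, 18.5, 15.4 and 18.5 TPM in exon 2-3 controls. The exon 2-3 cKO libraries had 20.2, 17.8, 19.3 and 17.4 TPM, and cKO replicates 1 and 3 were above the control range. Nlk had a log2 fold change of 0.084 (SE 0.079, 95% interval -0.092 to 0.26, limma adjusted p 0.590), which ran from 0.026 to 0.12 with 1 library left out. Its exon 2 means were 23.9 ± 1.2 and 23.1 ± 1.27 TPM (SD, n = 4), with a log2 fold change of -0.052.

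Tcf7 had 1.88, 1.94, 1.59 and 2.12 TPM in exon 2-3 controls and 1.45, 1.97, 2.49 and 2.48 TPM in exon 2-3 cKO. The cKO libraries lay on both sides of the control range. Tcf7 had a log2 fold change of 0.094 (SE 0.13, 95% interval -0.21 to 0.39, limma adjusted p 0.742), from 0.032 to 0.20 with 1 library left out. In the exon 2 line it was 0.067, from means of 2.52 ± 0.347 and 2.68 ± 0.362 TPM (SD, n = 4).

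Counted together, 0 of the 8 tested genes passed in the exon 2-3 line by limma, where 6.72% of all tested genes passed (4.16% higher and 2.56% lower in cKO). Fzd2 and Fzd7 had an unadjusted p under 0.05, as did 552 of the 2620 genes. Of the 8, 6 had a positive log2 fold change, with a median of 0.14 beside 0.032 over all genes. Of the genes called in that line 61.9% were higher in cKO, and this share was 50.8% after quantile normalisation and 41.4% after median centring.

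Again, 0 of 8 passed by limma in the exon 2 line, where 0.0763% of all tested genes passed, and none of the 8 had a log2 fold change beyond 0.067 in size. No member had groups without overlap there, and 1.83% of all genes did. For the difference between the lines' effects 0 of 8 passed by limma, beside 2.37% of all genes (1.6% higher and 0.763% lower). A p short of the threshold does not show equal levels. The intervals above give the range of changes allowed by fits that take the libraries as unpaired. With the replicate number as a block, the exon 2-3 SE was 0.17 for Rspo3 and 0.23 for Wnt9b.

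**Figure D3:**
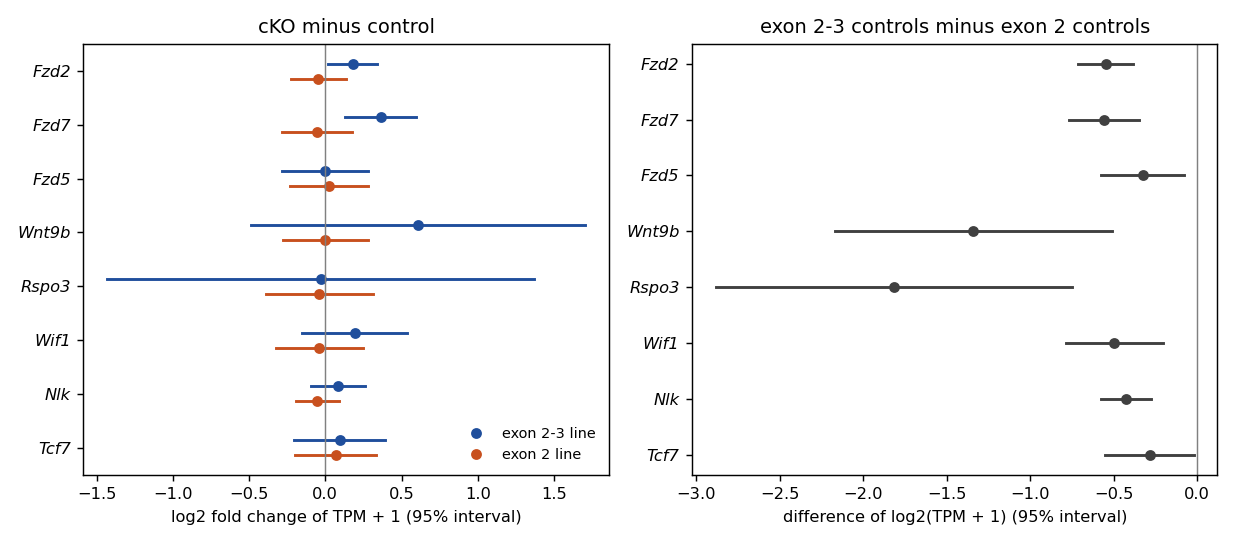
Log2 fold change of TPM + 1 with its 95% interval for the 8 tested genes, for cKO minus control in each line (left) and for exon 2-3 controls minus exon 2 controls (right). On the left Fzd7 stands furthest from 0 for its interval, at 0.36 in the exon 2-3 line, and Rspo3 has the widest interval. On the right the 8 values run from -0.29 to -1.81.

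In the 2 control groups, whose difference holds line and batch together, 7 of the 8 tested genes were lower in the exon 2-3 controls by limma. This stands beside 38.1% of all genes called lower and 52.6% called in either direction, so a call here was common. All but Fzd5 had control groups that did not overlap, as did 45.5% of all genes. Rspo3 differed most, at -1.81 in log2(TPM + 1) (SE 0.50, limma adjusted p 0.00666), from means of 4.87 ± 3.42 and 16.8 ± 1.98 TPM (SD, n = 4). Wnt9b was at -1.34 (SE 0.39, limma adjusted p 0.00909), from 0.865 ± 0.918 and 3.34 ± 0.608 TPM (SD, n = 4).

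The other differences between the controls were smaller. Fzd7 was at -0.56 (adjusted p 0.00025), Fzd2 at -0.55 (adjusted p 3.17e-05) and Wif1 at -0.50 (adjusted p 0.00654) in log2(TPM + 1) by limma. Nlk was at -0.43 (adjusted p 0.000118) and Fzd5 at -0.33 (adjusted p 0.0284). Tcf7, at -0.29, missed the threshold (adjusted p 0.0645). Without both libraries numbered 1, Rspo3 was at -1.39 (adjusted p 0.00129) and Wnt9b at -1.10 (adjusted p 0.0065), and 6 members passed. Fzd5 was then at 0.0523, and its call also ended when exon 2-3 control 1, 3 or 4 or exon 2 control 3 or 4 was left out (up to 0.0946).

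The scaling bears on this comparison. The median difference over all genes was -0.14, and centring each library on its median moved it to 0.041. The members' median was -0.52. All 8 members kept a negative sign under quantile normalisation, rescaling without hemoglobin genes and median centring, but under median centring Wif1 (adjusted p 0.0706) and Fzd5 (adjusted p 0.302) were not called, and Fzd5 also missed the threshold under quantile normalisation (adjusted p 0.115), without hemoglobin genes (adjusted p 0.0526) and with no filter (adjusted p 0.0558). Of all genes called between the controls, 27.5% were higher in exon 2-3, and this became 39.9% under quantile normalisation and 57.7% under median centring. Markers differed too, beside 38.1% of all genes called lower and 14.4% called higher. Of 7 mesenchymal markers 6 were called lower in the exon 2-3 controls and 1 higher, and 4 of 5 cardiomyocyte markers were called higher. Of 4 endothelial markers 2 were lower and 1 higher. Of 2 epicardial markers 1 was lower and 1 higher, as were 1 and 1 of 3 myeloid markers. The 1 neural marker tested was lower, and 0 of 5 erythroid markers were called. The part of these cell types in the members' differences was not tested.

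The other genes of the pathway came from 7 lists with 200 genes, of which 26 were among the rows held and 20 were tested. In the exon 2-3 line 1 of the 20 passed, or 5%, beside 6.72% of all genes. It was Wnt9a, a Wnt ligand gene. Of the 20, 14 had a positive log2 fold change and the median was 0.081. The exon 2 line had 0 of 20 past the threshold by limma, and the median was -0.024, and for the difference between lines 0 of 20 passed. The list of beta-catenin target genes had no row among those analysed here.

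Wnt9a had 2.85, 3.00, 2.15 and 2.45 TPM in exon 2-3 controls and 4.37, 4.44, 3.65 and 3.62 TPM in exon 2-3 cKO. All cKO libraries were above all controls, beside the 14.5% of genes with separate groups. The log2 fold change was 0.48 (SE 0.11, 95% interval 0.23 to 0.73, limma adjusted p 0.0342). The call ended in 7 of the 8 fits that left out 1 exon 2-3 library, all but that without control replicate 2, with adjusted p up to 0.0941, and at 0.142 without both libraries numbered 1. It also ended with no filter on low values (0.0885) and after quantile normalisation (0.0623). Wnt9a means in the exon 2 line were 2.74 ± 0.262 and 2.75 ± 0.629 TPM (SD, n = 4). The difference between lines was 0.49 (limma adjusted p 0.185).

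Markers of other cell types moved with the exon 2-3 cKO, and Fzd7 and Wnt9a are given beside them. Of the 12 mesenchymal markers 7 were held and tested, and Col1a1, Col3a1, Col5a2, Dcn and Fn1 passed as higher. The 7 summed to between 646 and 726.1 TPM in exon 2-3 controls and to between 1037 and 1107 TPM in cKO. Sums in the exon 2 line were 1030 to 1247 TPM in controls and 1122 to 1304 TPM in cKO, and 0 of 7 passed by limma. Both epicardial markers held of 13 were higher, Tcf21 by 0.70 (adjusted p 0.000969) and Krt19 by 0.41 (adjusted p 0.0143, and 0.0827 without both libraries numbered 1).

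The epicardial sum ran from 116.3 to 131.3 TPM in exon 2-3 controls and from 168 to 190.6 TPM in cKO. Of the 5 endothelial markers held, 4 were tested and none was called. All 5 together summed to between 209.8 and 270.5 TPM in controls and between 245.3 and 283 TPM in cKO. Of 5 cardiomyocyte markers none passed by limma, with 16940 to 18400 TPM in controls and 16460 to 17430 TPM in cKO. Erythroid markers (0 of 5 passed by limma) summed to between 2997 and 4559 TPM in controls and between 1514 and 11300 TPM in cKO. Of the 6 myeloid markers held, 3 were tested and 0 passed. All 6 together summed to between 86.48 and 88.51 TPM in controls and between 75.13 and 87.72 TPM in cKO. In bulk tissue, more cells of a type and more RNA per cell cannot be told apart. The part of these cell types in the Fzd7 and Wnt9a differences was not tested.

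The genes whose levels were most like Fzd7 across the 16 libraries, with each line centred, were Marcks (r 0.856), Arl4c (r 0.855) and Bcl2 (r 0.831). These are descriptive, and without both libraries numbered 1 they were 0.857, 0.870 and 0.842 over 14 libraries. Within the exon 2-3 line they were 0.894, 0.942 and 0.945, and within the exon 2 line 0.693, 0.410 and 0.332 (8 libraries each). The genotype means were not removed, so a difference between cKO and control enters these coefficients. In exon 2-3 controls and cKO the means were 110 and 129 TPM for Marcks and 12.8 and 15.7 TPM for Arl4c. For Bcl2 they were 5.95 and 7.34 TPM.

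Further pathway genes are named by the size of their change in each list. Among secreted and membrane modulators in the exon 2-3 line, Tmem198 was at -0.24 (limma adjusted p 0.240) and Igfbp4 at 0.21 (limma adjusted p 0.224). Tmem198 had 1.52 to 1.91 TPM in controls and 1.05 to 1.5 TPM in cKO. Its groups thus did not overlap, beside 14.5% of all tested genes. Igfbp4, a secreted binding protein of insulin-like growth factors that also hinders Wnt receptors, had 224, 218, 192 and 271 TPM in controls and 271, 241, 259 and 273 TPM in cKO. The controls reached the cKO range through replicate 4 alone, and without that library Igfbp4 passed (log2 fold change 0.31, adjusted p 0.0382), as it did after quantile normalisation (0.23, adjusted p 0.0405). These were 2 of 18 alternatives. In the other 16 Igfbp4 stayed short of the threshold, with limma adjusted p up to 0.474, reached without both libraries numbered 1.

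Among nuclear factors, Sox17, a transcription factor gene of endoderm and endothelium, was at 0.21 (limma adjusted p 0.361) in the exon 2-3 line and at -0.31 (limma adjusted p 0.999) in the exon 2 line. Tle2, a co-repressor gene, was at 0.12 and -0.13. In the polarity and calcium branch Vangl2, a core gene of planar cell polarity, was at 0.22 (limma adjusted p 0.169) and 0.076. Camk2b was at -0.23 in the exon 2-3 line, where its controls (1.48 to 1.75 TPM) were all above its cKO libraries (0.859 to 1.39 TPM). Separate groups were found there for 14.5% of all tested genes. Ppp2ca and Skp1, which act in the cytoplasm, were at -0.076 and -0.072 in that line. None of these passed in either line.

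The largest changes of the exon 2 line in the remaining lists were likewise short of the threshold. Csnk1g2, a casein kinase gene, was at -0.12, Igfbp4 at -0.062, Kremen1, a receptor gene for Dickkopf inhibitors, at -0.056, Mapk9 at -0.049 and Dvl2, which relays the Frizzled signal, at -0.048. Of the receptors for R-spondins, Lgr5 and Lgr6 were below the mean TPM limit, Lgr5 at most 0.188 TPM and Lgr6 between 0.423 and 0.926 TPM. Rnf43, which encodes one of the ubiquitin ligases that R-spondins remove, was at 0.141 TPM or lower.

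**Figure D4:**
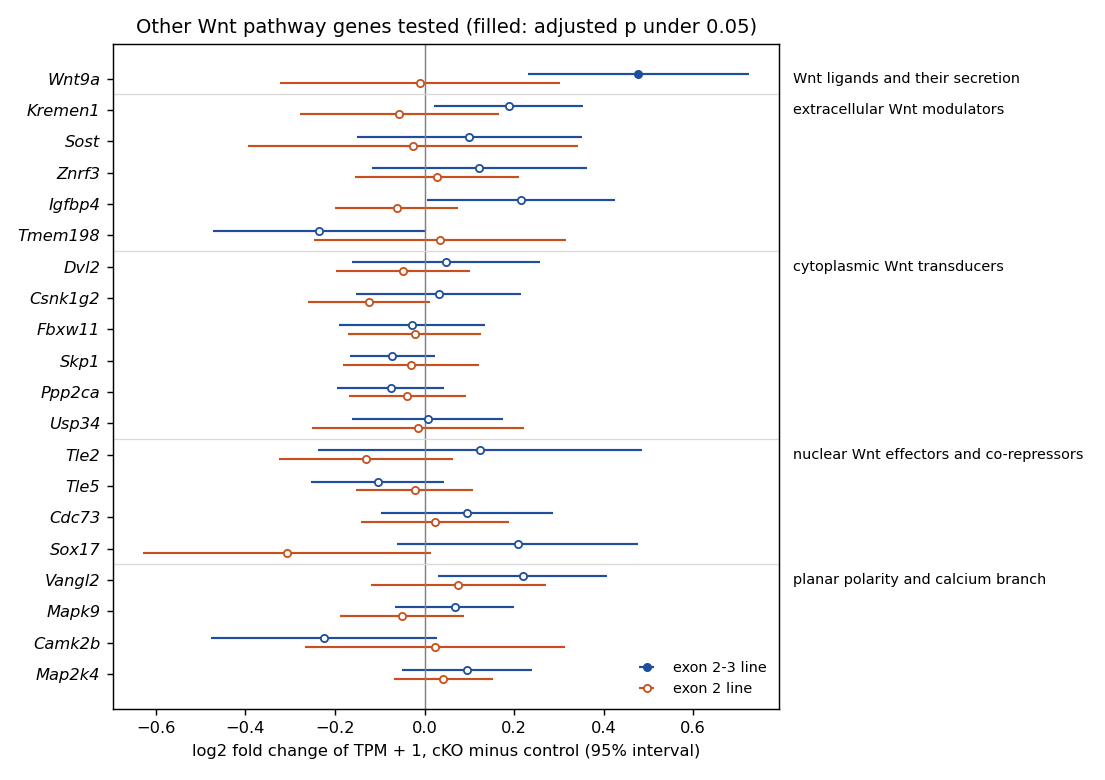
Log2 fold change of TPM + 1, cKO minus control, with its 95% interval, for the 20 tested genes of the pathway lists in the exon 2-3 and exon 2 lines, grouped by role. The filled point, Wnt9a in the exon 2-3 line at 0.48, is the one with an adjusted p under 0.05.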

How the data were processed

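RNA-seq of 16 ventricle libraries was analysed from 1 table of TPM values that the authors deposited. The submitters' processing notes name FastQC, Trim Galore 0.6.7, HISAT2 2.2.1, StringTie 2.2.1 and featureCounts, and the build GRCm38, with no order. The labels conflict: one text describes stranded mRNA libraries, another depletion of ribosomal RNA, and the extraction text names cortical neurons. Row coordinates equalled RefSeq GRCm38.p6 for 5919 of 5921 rows. The rows used cover chromosomes 1 and 10 and chromosome 11 up to position 106501211, and sum to between 15.2% and 17.1% of a library's TPM. Groups and replicate numbers came from the sample titles, and columns were matched to samples by their descriptions.

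Values were tested as log2(TPM + 1), which understates changes of low genes, in the 2620 genes whose mean TPM reached 1. The 8 libraries of a line were modelled apart from the other line in limma 3.58.1 under R 4.3.3 (lmFit, then eBayes with an intensity trend). All 16 libraries entered a group means model for the difference of effects and for the controls. All tests were two-sided, with Benjamini-Hochberg adjustment over all genes tested and a threshold of 0.05. The procedure was also run on simulated data. Changes were set there only in genes above a level that Fzd5, Fzd7, Wnt9b, Wif1 and Tcf7 do not reach. How well changes of these genes are recovered was therefore not examined. Intervals are limma's, at 95%. Figures were made with matplotlib 3.10.9.

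The members and gene lists were chosen with earlier results of these data known. Named are all 9 members, each pathway gene past the threshold, the 2 genes of each list with the largest change in each line, and the 3 genes most like Rspo3, Wnt9b and Fzd7. The choice of these 3 members, of Prrx1 and of the genes below the TPM limit was made after their values were seen. Alternatives were a pseudocount of 0.1, no filter, a mean TPM of at least 5, quantile normalisation, rescaling without hemoglobin genes, median centring, no trend, one fit over all libraries, array weights, the replicate number as a block and leaving out each library. Leaving out both exon 2-3 libraries numbered 1 was chosen after seeing the data.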

Additional observations from a re-analysis of the deposited data

Results flagged for a closer look

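For 35 genes, the 9 members and others named above, each group of 4 libraries was examined for one library far from the other 3 by Dixon's criterion. Of 140 groups 6 had one, where chance gives about 1 in 20, and no group of a member was among them. Wnt9a had 1.81 TPM in exon 2 cKO replicate 4, against 2.99 to 3.14 TPM in the other 3. Csnk1g2 had 76.4 TPM in the same library, against 87.0 to 89.0 TPM in the others. Skp1 had 203 TPM in exon 2 control replicate 4, against 224 to 227 TPM in the others. Tbx2, the gene most like Rspo3, had 12.3 TPM in exon 2 control replicate 1, against 10.2 to 10.6 TPM in the others. Of the genes most like Fzd7, Marcks had 89.1 TPM in exon 2-3 control replicate 3, against 115 to 120 TPM in the others, and Bcl2 had 6.2 TPM in exon 2-3 cKO replicate 1, against 7.68 to 7.75 TPM in the others. Fzd7 was lowest in its group in both of those libraries.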

How the results depend on the processing

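Direction and call of the members were recomputed under each alternative. Member values kept both in 128 of 139 fits for the exon 2-3 line, 114 of 131 for the exon 2 line, 174 of 203 for the difference of effects and 190 of 203 for the controls. In the exon 2-3 line 1 member rather than 0, Fzd7, was called under median centring, without a trend and in one fit over all libraries, and Fzd7 was also the 1 called in the difference of effects with array weights (0.47, adjusted p 0.0444). Between the controls 3 members rather than 7 were called at a mean TPM of at least 5, where 3 were tested, and 6 to 8 with one library left out.

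Genes called in the exon 2-3 line numbered 176, and 95 with no filter, 305 after quantile normalisation, 269 without hemoglobin genes, 343 after median centring, 48 without both libraries numbered 1, and 70 to 190 with one library left out. The count was at or below 100 without control 1 or 2 or any one cKO library, and lowest without cKO 3. In the exon 2 line the count was 2, and 4 in one fit over all libraries and 2 to 4 with one left out (4 without control 3). For the difference of effects it was 62, and 133, 127 and 136 with quantile normalisation, median centring and array weights, 36 without both libraries numbered 1, and 36 to 84 with one left out (lowest without exon 2 cKO 2, and 37, 38 and 41 without exon 2 control 4, exon 2 cKO 4 and exon 2-3 cKO 3). Between the controls it was 1377, and 1190 to 1401 with one left out.

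Signs that turned belonged to values near 0. In the exon 2-3 line Fzd5 became 0.056 and Rspo3 0.12 without both libraries numbered 1. In the exon 2 line Wnt9b became 0.0011 at a pseudocount of 0.1, 0.0013, 0.010 and 0.0035 after quantile normalisation, without hemoglobin genes and after median centring. The difference of effects became -0.11, -0.024, -0.012 and -0.044 for Rspo3 under the same 4 settings, -0.053, -0.027 and -0.015 for Tcf7 under quantile normalisation, median centring and array weights, and 0.034 for Fzd5 without both libraries numbered 1. With one library left out, the ranges were -0.064 to 0.069 (Fzd5) and -0.46 to 0.55 (Rspo3) in the exon 2-3 line, and -0.42 to 0.59 (Rspo3), -0.087 to 0.047 (Fzd5) and -0.036 to 0.13 (Tcf7) for the difference. In the exon 2 line they were -0.10 to 0.0074 (Fzd2), -0.049 to 0.082 (Fzd5), -0.11 to 0.0036 (Fzd7), -0.080 to 0.060 (Wnt9b), -0.21 to 0.043 (Rspo3), -0.11 to 0.019 (Wif1), -0.062 to 0.12 (Wnt9a), -0.15 to 0.020 (Kremen1) and -0.025 to 0.077 (Tcf21). The cause was not tested.

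Whether the replicate numbers mark a pairing is not stated, and they were not taken as one: same-numbered deviations correlated with r between -0.029 and 0.21 and were over 0.1 in 1 of 4 pairs of the exon 2-3 line and 2 of 4 of the exon 2 line. Each library of a pair correlated best with its own number in 1 and 3 of 4 pairs. With the replicate block 149, 2, 68 and 1305 genes were called in the 4 comparisons, with 0, 0, 0 and 7 members, and the exon 2-3 adjusted p of Fzd7 was 0.0980. The block lowered the SE from 0.63 to 0.17 for Rspo3 and from 0.49 to 0.23 for Wnt9b (adjusted p 0.946 and 0.176). TPM gives no read depth, so how far depth limits Wnt6 and the low Wnt9b values is unknown.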
